A study of Saccharomyces cerevisiae with 8 samples.

Results

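Late exposures of budding yeast to the peptide IP-1 were set against early ones: for each gene, the mean log2 ratio of treated over untreated RNA on the 15 and 30 min arrays minus the mean on the 3.5 and 7 min arrays. All 8 samples of the series enter this difference, 4 on the late side and 4 on the early side. They are the 2 spots of every gene on 4 two-colour arrays, so each side holds 2 arrays. Of 6336 yeast features on the array, 6152 were above local background on all 4 arrays and were tested, and 184 were not.

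The cells were Saccharomyces cerevisiae BY4741, a haploid laboratory strain of mating type a (MATa), grown in YPD, a rich glucose medium, to an optical density of 0.4. IP-1 (Iztli peptide 1) was added at 10 µM for 3.5, 7, 15 or 30 min. On each array the RNA of the treated cells carried Cy5 and that of untreated cells of the same age carried Cy3, with no dye swap. Each exposure is 1 array of 1 treated against 1 untreated RNA, and nothing in the labels gives a second culture. The p-values therefore measure the spread between single arrays of different exposures. The array number in the column headers does not run with time (1 is the 30 min array, 2 the 3.5 min array), and exposures were taken from the sample descriptions.

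IP-1 was designed from the yeast alpha-factor pheromone and an antimicrobial peptide. In MATa cells alpha-factor binds the receptor Ste2, frees the G protein subunits Ste4 and Ste18 and drives a kinase cascade to the transcription factor Ste12. Ste12 raises genes for agglutination, cell fusion and nuclear fusion, while Far1 holds the cells in G1 and Sst2, Bar1 and other negative regulators end the signal. A dye effect that is the same on every array cancels in the difference between late and early arrays. A change that treated cells kept at all exposures cancels too.

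No gene was called different between late and early exposures after adjustment. At an adjusted p under 0.05, limma's moderated test on the 4 arrays with Benjamini-Hochberg adjustment called 0 of 6152 features (0% in each direction), and the lowest adjusted p was 0.9999. An unadjusted p under 0.05 was reached by 28 features (0.455%), 13 higher and 15 lower late. This is a smaller share than that limit gives when no feature differs and the residual holds only noise. The residual here also holds the differences between exposures within a side. Those differences made up 53.7% (late side) and 26.0% (early side) of the sum of squares between the 4 arrays. The 0 calls therefore do not show that late and early exposures were alike. The size of the late minus early difference had a median of 0.09 on the log2 scale, 23 features (0.374%) differed by at least 0.5, and 0 differed by 1 or more. For a single gene an exact permutation of 2 against 2 arrays cannot give a p below 0.333.

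The precision sets what could have been seen. The 95% confidence interval around a gene's difference reached 0.37 on either side for the median feature, and from 0.33 to 0.57 once the narrowest and widest 5% of features were set aside. These intervals are for 1 gene at a time and are not adjusted for the number of features tested. Differences smaller than these widths were not detectable with 2 arrays a side, and their absence is not shown. Larger ones could also miss the adjusted test: COB, at -0.55 with a 95% interval of -0.97 to -0.13, was not called. Because the arrays hold bulk RNA, fewer cells of a type and less RNA per cell cannot be told apart.

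The late arrays differed more from each other than from the early ones. Of the sum of squares between the 4 arrays, taken over all tested features, 20.3% lay between late and early, 26.0% between the 3.5 and 7 min arrays, and 53.7% between the 15 and 30 min arrays. The SD over genes of the difference between 2 arrays was 0.34 for 15 against 30 min and 0.23 for 3.5 against 7 min. It was lowest, at 0.20, for 7 against 30 min, a pair that crosses the late and early sides. Across genes the 15 and 30 min ratios had a Pearson correlation of 0.31, while 3.5 and 15 min had 0.57 and 7 and 15 min had 0.60. These are descriptions of probes that share dyes and sequence from array to array.

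The 4 arrays were not of equal width or quality. The SD of the log2 ratio over genes was 0.25 at 3.5 min, 0.22 at 7 min, 0.35 at 15 min and 0.18 at 30 min, and a ratio of at least 1 in size was found for 25, 6, 93 and 4 features. The 2 spots of a gene correlated at 0.78, 0.76, 0.91 and 0.56 on the same arrays. The 30 min array also had the dimmest Cy5 channel, with a median signal 1.86 times its background against 2.50 to 3.77 on the others. In the Cy3 channel the median signal was 3.74 and 3.84 times background at 3.5 and 15 min. At 7 and 30 min it was 2.43 and 2.55 times background. The part of these differences in the results below was not tested.

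**Figure D1:**
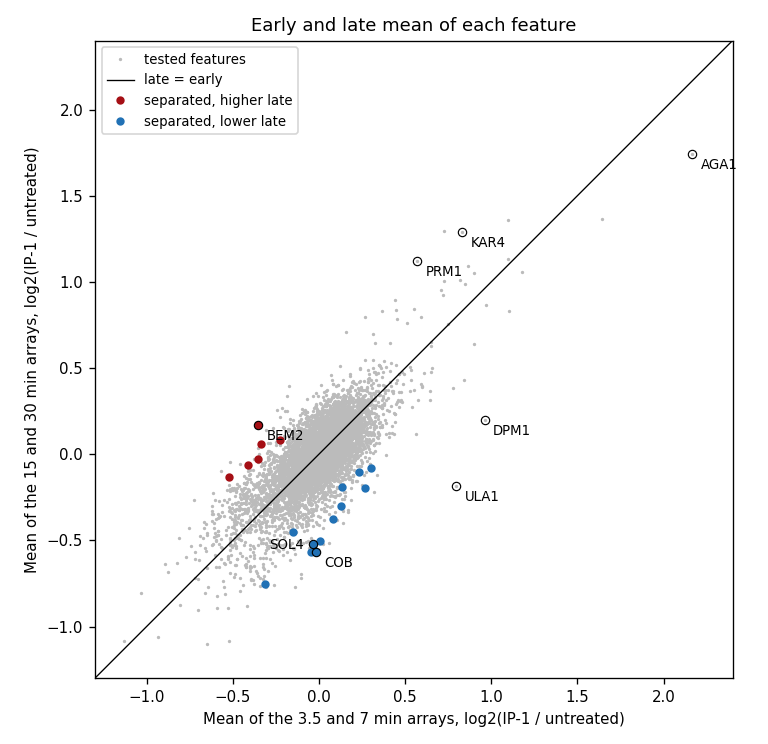
Each point is 1 of 6152 tested features, with its mean log2(IP-1 / untreated) on the 3.5 and 7 min arrays on the horizontal axis and on the 15 and 30 min arrays on the vertical axis. Most points lie along the line of equal means, AGA1 is high on both axes, and the 6 red and 12 blue points mark features whose late arrays both stood apart from both early arrays by at least 0.25.

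Features were next ranked by how far both late arrays stood from both early arrays, so that 1 wide array could not carry a gene alone. The late and early arrays did not overlap for 800 features that were higher late (13%) and 593 that were lower late (9.64%), but the gap between the sides was small, with a median of 0.05. A gap of at least 0.25 was found for 18 features (0.293%), 6 higher late (0.0975%) and 12 lower late (0.195%), and the widest gap was 0.40. In 14 of the 18 every late spot lay beyond every early spot, the exceptions being CTF19, YHR130C, POR2 and YNL303W. These features were picked on the same arrays, so their values are a description. No member of the 18 passed the adjusted test. The set depends on the processing: 7 of the 18 kept a gap of at least 0.25 with no background correction and 8 with median centring in place of loess, while an offset of 0 widened the set to 117 features. Only 13 of the 18 passed a stricter filter above empty spots. YHB1, YNL303W and PPM1 were among those that did not.

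On the higher side, BEM2, which acts in bud emergence, had log2 ratios of -0.54 at 3.5 min, -0.17 at 7 min, 0.19 at 15 min and 0.16 at 30 min. Both early arrays were below 0 and both late arrays above it, a difference of 0.52 ± 0.17 (SE, 95% interval 0.13 to 0.92). The 2 spots of BEM2 at 3.5 min were -0.31 and -0.76, and without the 3.5 min array the difference was 0.34. MCA1, the yeast metacaspase, had -0.58, -0.46, -0.09 and -0.16 at the same exposures. YHB1, a flavohemoglobin that removes nitric oxide, had -0.43, -0.39, -0.10 and -0.02. For both genes the early arrays were the low ones and the late arrays were near 0, with differences of 0.39 ± 0.15 and 0.35 ± 0.14 (SE), but that of YHB1 was 0.07 with no background correction. AAN1 had -0.22, -0.23, 0.06 and 0.10, the reading frame YHR130C had -0.30, -0.37, -0.02 and 0.14, and YNL303W had -0.41, -0.30, -0.02 and -0.04. In these 3 the late arrays lay nearer 0 than the early arrays, but some late spots disagreed. The 15 min spots of YHR130C were -0.24 and 0.20, and the 30 min spots of YNL303W were -0.30 and 0.21. Just outside the limit, COF1, which encodes the actin-severing protein cofilin, had a gap of 0.248 against 0.252 for YNL303W.

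On the lower side the widest gap belonged to SOL4, a 6-phosphogluconolactonase of the pentose phosphate pathway. Its ratios were -0.05, -0.02, -0.60 and -0.45 at 3.5, 7, 15 and 30 min, near 0 on both early arrays and low on both late ones. The difference was -0.49 ± 0.15 (SE, 95% interval -0.83 to -0.14), or 0.714 times the early level. MRD1, which acts in processing of the 18S rRNA precursor, had 0.12, -0.11, -0.56 and -0.44, and CTF19, a kinetochore protein, had 0.11, -0.20, -0.61 and -0.52. The late arrays were the 2 low ones in both genes, while the early arrays lay on either side of 0. COB, the cytochrome b gene of the mitochondrial genome, had -0.01, -0.03, -0.78 and -0.35. Its 15 min ratio minus its 30 min ratio was -0.43, larger in size than the gap of -0.32 to the early arrays, and without the 15 min array the difference was -0.33 in place of -0.55.

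Of the other lower features, 5 were above 0 early and below 0 late. VAC8, a vacuolar membrane protein needed for vacuole inheritance, had 0.25, 0.36, -0.08 and -0.08. PEX35, a peroxisomal membrane protein, had 0.23, 0.03, -0.33 and -0.27, and PPM1, the carboxyl methyltransferase of protein phosphatase 2A, had 0.21, 0.32, -0.08 and -0.31. POR2, a porin of the mitochondrial outer membrane, had 0.17, 0.09, -0.21 and -0.17, and TMA64, a ribosome-associated protein related to the initiation factor eIF2D, had 0.05, 0.12, -0.50 and -0.25. A probe with the suffix -R, YGL008C-R, behaved alike with 0.20, 0.27, -0.06 and -0.15, and it is not counted as a gene here. ADH7, an NADPH-dependent alcohol dehydrogenase, had -0.45, -0.17, -0.81 and -0.70, and QRI5, a mitochondrial protein, had -0.18, -0.11, -0.43 and -0.47. Both were below 0 on every array and lowest on the late ones. Just outside the limit, UBX2, an endoplasmic reticulum protein of protein quality control, had a gap of -0.224 against -0.253 for QRI5.

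**Figure D2:**
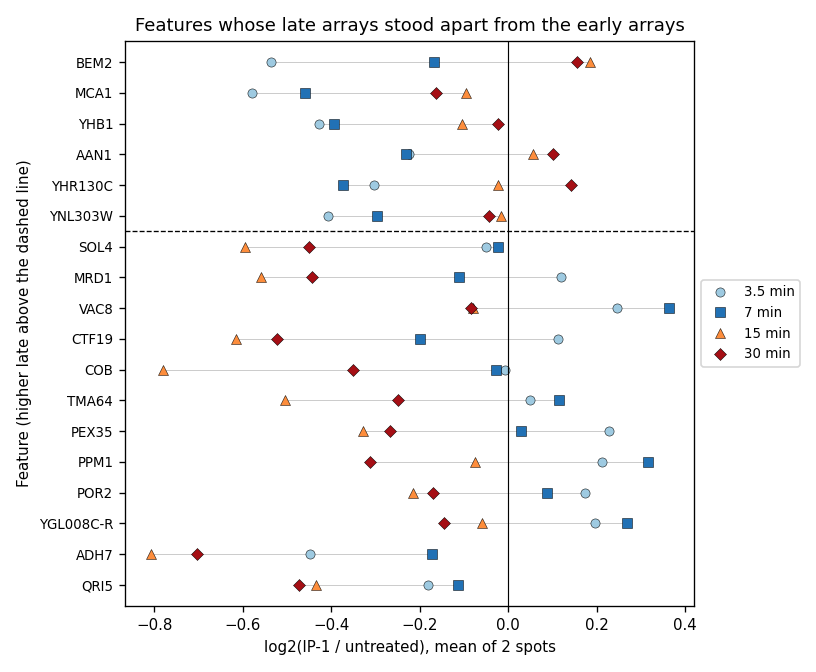
The 18 features with a gap of at least 0.25 between late and early arrays, with the log2(IP-1 / untreated) of each array (mean of 2 spots) as 1 symbol. Above the dashed line the 15 and 30 min symbols lie to the right of the 3.5 and 7 min symbols in 6 features, and below it they lie to the left in 12, with BEM2 from -0.54 to 0.19 and COB from -0.78 to -0.01.

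The genes with the largest mean differences were mostly a different set. Only 4 of the 23 features that differed by at least 0.5 were among the 18 above (BEM2, COB, CTF19 and MRD1), and in 10 of the 23 the late and early arrays overlapped. The array farthest from the gene's median was the 15 min array in 13 of them, the 3.5 min array in 8, and the 7 and 30 min arrays in 1 each. These extreme genes were chosen after their values were seen.

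ULA1, a subunit of the enzyme that activates the ubiquitin-like protein Rub1, had the largest difference, -0.98 ± 0.59 (SE). Its ratios were 1.91 at 3.5 min and -0.31, -0.28 and -0.09 afterwards, and the 2 spots behind the 3.5 min value were -0.62 and 4.43, so a single discordant spot carried the difference. DPM1, the dolichol phosphate mannose synthase, had 1.59, 0.33, 0.46 and -0.05, a difference of -0.76 ± 0.38 (SE). Its 2 spots at 3.5 min were 2.94 and 0.24, so again only 1 spot was high. PRO3, which catalyses the last step of proline synthesis, had -0.19, -0.09, -1.34 and -0.21, and MET30, an F-box protein that restrains sulfur amino acid genes, had -0.53, -0.51, -1.58 and -0.59. In both genes the 15 min array was far below the other arrays, on both of its spots, although MET30 was low on the other arrays as well. The gap between the 30 min array and the nearer early array was -0.02 for PRO3 and -0.06 for MET30. ECT1, an enzyme of phosphatidylethanolamine synthesis, was the 1 large difference in which each later array mean was higher, with 0.06, 0.48, 0.69 and 0.91. Its gap was 0.21 and its difference 0.53 ± 0.19 (SE). The spots of ECT1 overlapped between exposures, with 0.65 and 0.31 at 7 min and 0.60 and 0.78 at 15 min.

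Many genes of the mating response had ratios above 0 on both the early and the late side, and none passed the test of late against early. Of 27 tested features on the pheromone response list, 0 were called against 0% of all features, 3 were higher late without overlap (CIK1, PRM6 and PRM9) and 1 was lower (FIG2), 14.8% against 22.6% of all features. The median ratio of the list was 0.32, 0.07, 0.43 and 0.08 at 3.5, 7, 15 and 30 min, and the median difference was 0.06, beside 0.01 for all features. The 3.5 and 15 min arrays were the higher pair, so that each side of the comparison held 1 array with high and 1 with low ratios. Fold changes between late and early in these genes therefore carry wide intervals. The 3.5 and 15 min arrays also had the higher Cy3 signal over background, and the part of this in the pattern was not tested.

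Of the ligand genes, MFA1, which encodes the a-factor pheromone, had 1.51, 0.22, 1.77 and 0.41 at 3.5, 7, 15 and 30 min, and MFA2, its partner gene, had 1.08, 0.23, 0.82 and 0.18. In both, the 3.5 and 15 min arrays were high and the 7 and 30 min arrays low, and the sides overlapped. The late minus early difference was 0.22 for MFA1 (95% interval -0.94 to 1.39) and -0.16 for MFA2 (-0.87 to 0.56). The alpha-factor receptor gene STE2 had 0.47, -0.13, 0.35 and 0.15, with a difference of 0.08 (95% interval -0.42 to 0.58). STE6, the exporter of a-factor, had 0.46, 0.13, 0.07 and 0.34.

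Among genes that damp the signal, BAR1, the secreted protease that degrades alpha-factor, had 1.19, -0.17, 1.12 and 0.40, and SST2, the GTPase-activating protein of the G protein alpha subunit, had 1.19, 0.51, 1.24 and 0.73. Both were highest at 3.5 and 15 min, with differences of 0.25 (95% interval -0.73 to 1.23) and 0.14 (-0.47 to 0.75). ASG7, an a-specific gene whose product acts on Ste4 in newly mated cells, had 0.18, 0.13, 1.13 and 0.28. It was the 1 feature of 7 on the a-specific list whose late arrays lay above both early ones, by 0.10 (14.3% against 22.6% of all features). Its 30 min spots were 0.11 and 0.45, and the lower one lay below both 3.5 min spots, 0.19 and 0.18. The difference of 0.55 ± 0.26 (SE) came mostly from the 15 min array. All 7 a-specific features passed the background filter, and so did the 4 alpha-specific ones (MF(ALPHA)1, MF(ALPHA)2, SAG1 and STE3), for which 0 were called and the median difference was 0.07. Of these 4, 2 were higher late without overlap (MF(ALPHA)1 and SAG1), 50% against 22.6% of all features. In neither did every late spot lie above every early spot.

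Among the signalling components, 0 of 16 were called, 2 were higher and 1 lower without overlap (18.8% against 22.6% of all features), and the median difference was -0.01. STE4, the G beta subunit, had -0.10, 0.03, 0.57 and 0.11, a difference of 0.37 (95% interval -0.06 to 0.81). CDC24, the exchange factor of Cdc42 that Far1 brings to the site of polarised growth, had 0.57, 0.73, 0.84 and 0.46. It was above 0 on all 4 arrays with a difference of 0.00 (95% interval -0.41 to 0.41). STE12 itself had 0.01, -0.24, -0.57 and -0.15, with both sides overlapping.

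Among the targets, KAR4, a transcription factor for karyogamy genes, had 1.09, 0.57, 2.00 and 0.57, and PRM1, a membrane protein of cell fusion, had 1.22, -0.08, 2.18 and 0.06. The 15 min array was the highest and 7 and 30 min were nearly equal in both. Their differences were 0.46 (95% interval -0.51 to 1.42) and 0.55 (-0.97 to 2.07). The fusion gene FUS1 had 1.17, -0.10, 0.68 and 0.18, with both late arrays inside the range of the early ones. FUS2, also of cell fusion, had 0.52, 0.17, 0.61 and 0.20, and FIG1, a membrane protein of calcium entry during mating, had 0.36, -0.20, 0.87 and -0.05. In both, the 15 min array lay above the early arrays and the 30 min array between them. CHS1, a chitin synthase, had 0.84, 0.06, 1.38 and 0.18. For the cell-cycle inhibitor FAR1 the 4 arrays lay between 0.11 and 0.24, and the interval of its difference, -0.33 to 0.36, was among the narrower ones of the list.

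The adhesion genes were the members with the lowest differences. AGA1, the anchor subunit of a-agglutinin, had 2.68, 1.65, 1.97 and 1.51, and AGA2, its adhesion subunit, had 1.44, 0.12, 0.59 and 0.18. FIG2, a related mating adhesin, had 1.16, 0.53, 0.48 and 0.39. AGA1 was the highest of these on all 4 arrays, and in all 3 genes the 3.5 min array was the highest. FIG2 had both late arrays below both early ones, by 0.05. The differences were -0.42 ± 0.32, -0.39 ± 0.38 and -0.41 ± 0.22 (SE), and limma called none of them. In the karyogamy motor, CIK1 had -0.10, -0.07, 0.11 and 0.04, and its partner KAR3 had 0.10, -0.12, -0.05 and 0.43. KAR3 was among the dimmest features (brightness percentile 2.73). CIK1 was below 0 early and above it late, a difference of 0.16 (95% interval -0.17 to 0.50).

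**Figure D3:**
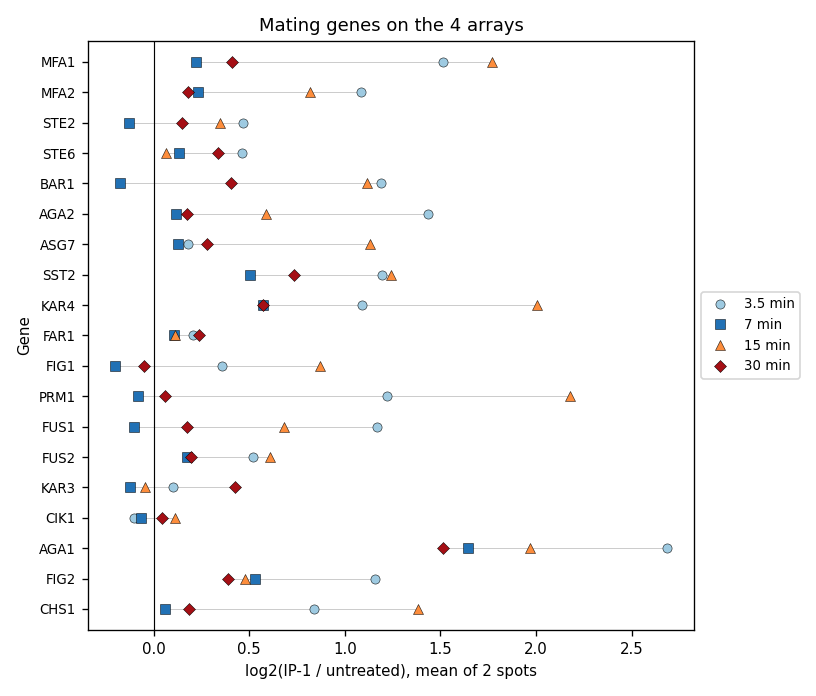
Log2(IP-1 / untreated) of 19 mating genes on each of the 4 arrays (mean of 2 spots), with the a-specific genes at the top and adhesion and wall genes at the bottom. In most rows the 3.5 and 15 min symbols lie to the right and the 7 and 30 min symbols to the left, as in PRM1 with 1.22 and 2.18 against -0.08 and 0.06.

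Together with the mating lists, 36 lists of 954 features in all were set beside the whole array. In 3 lists the median difference was at least 0.1 in size, and list medians ran from -0.13 to 0.29. A member reached an unadjusted p under 0.05 in 2 lists, SOL4 in the general stress list and the fatty acid elongases ELO1 and ELO2 in the lipid list. ELO1 had -0.81, -0.33, -0.11 and -0.09 at 3.5, 7, 15 and 30 min, and ELO2 had -0.21, -0.43, -0.82 and -0.63. The 2 elongases stood apart in opposite directions, with ELO1 lowest early and ELO2 lowest late, by gaps of 0.22 and -0.20.

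The 62 large and 43 small ribosomal subunit features had median differences of 0.00 each. Their medians were 0.29, 0.05, 0.36 and -0.09 for the large subunit at 3.5, 7, 15 and 30 min, and 0.26, 0.08, 0.43 and -0.12 for the small one, so the 2 late arrays took opposite signs. Ribosomal protein genes often come in near-identical pairs, which probes may not tell apart. Of 63 ribosome assembly features 11 were higher and 1 lower late without overlap (19% against 22.6% of all features), with a median difference of 0.04. NOP1, the rRNA methyltransferase fibrillarin, had -0.06, -0.14, 0.16 and 0.13, and SOF1, a protein of 18S rRNA processing, had -0.15, -0.08, 0.36 and 0.03. Both were below 0 early and above 0 late, with differences of 0.24 ± 0.14 and 0.31 ± 0.17 (SE).

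Of 4 lists of cell-cycle genes, 2 were among the 3 with larger medians. The other two, of the G1 to S and the G2 to M transition, had median differences of 0.02 and -0.01 and non-overlapping shares of 13.8% and 11.8%, below the 22.6% of all features. Of 19 tested features of daughter cells and early G1, 8 were higher and 1 lower late without overlap (47.4% against 22.6% of all features), the median difference was 0.13 and 0 were called. MCM2, a subunit of the replicative helicase, had -0.13, 0.12, 0.50 and 0.18, and CLN3, the G1 cyclin that starts the cycle, had 0.06, -0.13, 0.22 and 0.15. CLN3 was among the dimmest features (brightness percentile 3.43), and its 2 spots at 7 min were -0.33 and 0.08. DSE2, a secreted daughter cell protein related to glucanases, had -0.68, -0.47, -0.46 and -0.09. The late arrays lay above the early ones in all 3, by 0.08 or less. All 8 histone features had a negative difference, beside 2963 of all 6152, with a median of -0.13 and a range from -0.34 to -0.02. Of the 8, 2 were lower without overlap, 25% beside 22.6% of all features in either direction. HTB2, a histone H2B gene, had 0.11, -0.20, -0.48 and -0.28, a difference of -0.34 (95% interval -0.74 to 0.06). Histone genes of one type are close copies, so their probes are not independent.

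Lists of stress and metabolism had small median differences. The general stress list of 40 features had 4 higher and 5 lower without overlap (22.5% against 22.6% of all features) and a median difference of -0.02, and the 23 heat shock features had 3 in each direction (26.1%) and -0.02. Of 28 oxidative stress features 0 were higher and 4 lower without overlap (14.3% against 22.6% of all features), with a median of -0.07. GLR1, the glutathione reductase, was the widest of these with 0.10, 0.26, -0.28 and -0.01. Of 21 hexose and galactose features 7 were higher and 1 lower without overlap (38.1% against 22.6% of all features), with a median of 0.06. The hexose transporter gene HXT14 had -0.35, -0.20, -0.05 and 0.07, HXT5 had -0.49, -0.56, -0.17 and -0.35, and HXT4 had -0.57, -0.48, -0.36 and -0.24. In these 3 both late arrays lay above both early ones, by 0.11 to 0.15, and limma called none. The markers disrupted in BY4741 (HIS3, LEU2, MET17 and URA3) had a median difference of 0.03. Their brightness percentiles were 54.96, 99.93, 74.07 and 13.88 in that order, so some of these probes gave clear signal. What they read was not tested.

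The 5 features of Ty3, a retrotransposon whose transcription follows pheromone, had the highest list median, 0.29. YGR109W-A had 1.13, 0.32, 2.32 and 0.28, and YGR109W-B had 0.82, 0.29, 1.39 and 0.29. In the Ty3 features the 15 min array was the highest, and 0 of 5 were without overlap. The copies are near-identical and 4 of the 5 features, all but YGR109W-B, carry names of several genes, so they are not independent measurements. Of 23 features of the mitochondrial genome, a group described after its values were seen, 20 had a negative difference, beside 2963 of all 6152, and the median was -0.15. Of the 23, 6 were lower and 0 higher without overlap, 26.1% against 22.6% of all features. The group's median was -0.11, -0.12, -0.35 and -0.17 at 3.5, 7, 15 and 30 min, lowest at 15 min, and COB was its only member with a gap of 0.25.

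**Figure D4:**
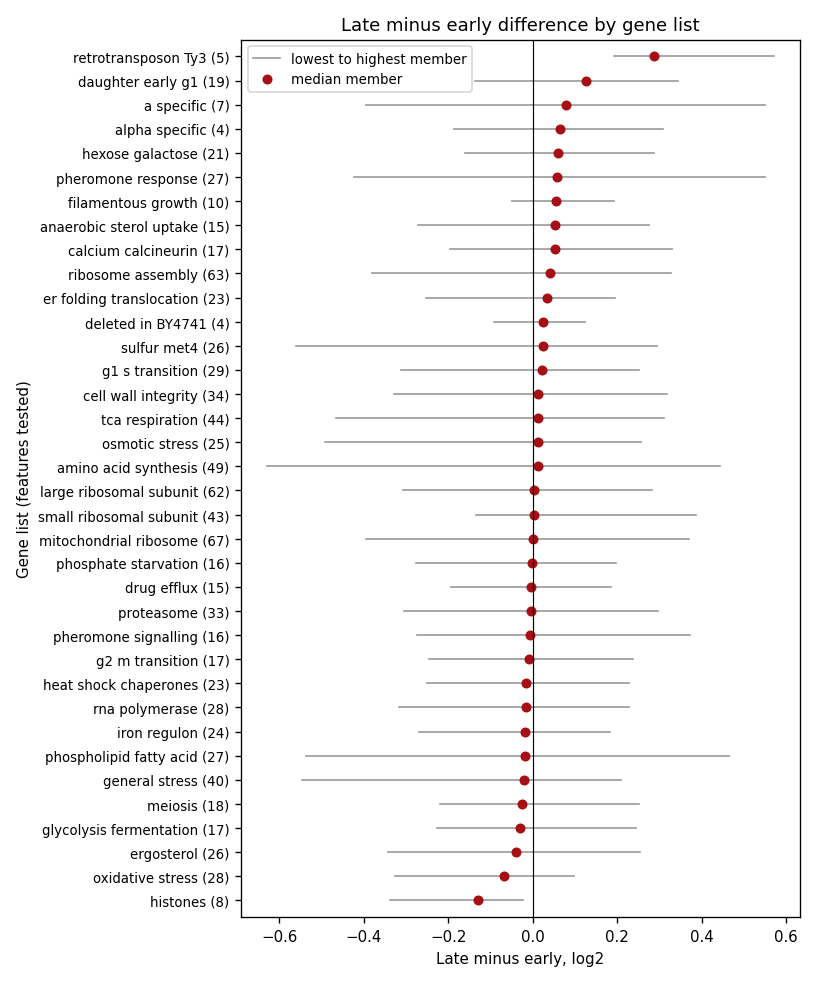
Late minus early log2 difference for 36 gene lists, each with its median member as a point and its lowest to highest member as a line, and the number of tested features in brackets. The points run from -0.13 for histones to 0.29 for Ty3, and every line except those of these 2 lists crosses 0.

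Leaving out 1 late array changed the number of calls. Without the 30 min array, so that the 15 min array stood alone against both early arrays and was assumed to vary like them, limma called 190 features (3.09%), 43 higher (0.699%) and 147 lower (2.39%). Without the 15 min array it called 4 (0.065%), and without the 3.5 or the 7 min array it called 0. The medians of the 43 higher features were 0.26, 0.19 and 0.97 at 3.5, 7 and 15 min, and those of the 147 lower features were -0.07, -0.11 and -0.87. On the 30 min array, which was not used to choose them, the medians of the same features were 0.01 and 0.01.

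For most features called at 15 min, the 30 min array did not lie beyond the early arrays on the same side. In 25 of the 190 the 30 min array lay beyond both early arrays on the same side as the 15 min array. It lay between the early arrays in 58, and beyond them on the opposite side in 107. Over all tested features, both late arrays lay beyond both early arrays on the same side in 22.6%. The shares of the other positions over all features were not taken. The 2 late arrays are set here against the same early arrays, so the difference at 30 min is given as a description.

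Mating genes were among the 43 higher ones, which are 0.699% of all features. Of 27 pheromone response features 4 were called higher (FIG1, KAR4, PRM1 and CHS1) and 0 lower, and of 7 a-specific features 2 were called higher (MFA1 and ASG7). Of 16 signalling features 0 were called higher and 1 lower, RGS2, with 0.28, -0.24, -0.72 and 0.22 at 3.5, 7, 15 and 30 min. PRM1 had a 15 min ratio 1.61 above its early mean, and KAR4 had one 1.17 above its own. The early arrays of PRM1 were far apart, at 1.22 and -0.08, and on all 4 arrays its difference was 0.55 ± 0.65 (SE). MFA1 had 1.77 at 15 min but also 1.51 at 3.5 min. With 1 late array, the spread in this fit came from the 2 early arrays and was moderated across features. All 5 Ty3 features were called higher, as were 4 of 62 large and 4 of 43 small ribosomal subunit features, among them RPS30A with 0.34, 0.25, 1.16 and -0.23 and RPL40B with 0.24, 0.13, 0.91 and -0.14 at 3.5, 7, 15 and 30 min. In RPS30A and RPL40B the 30 min array was below both early arrays. Among the lower ones, KKQ8, a protein kinase gene, had -0.69, -0.37, -1.81 and 0.03, so that its 15 min array was the lowest and its 30 min array the highest of the 4.

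The 4 features called without the 15 min array were DHH1, a helicase of mRNA decay, GLN3, a transcription factor of nitrogen use, MUM3 and the reading frame YGR290W. All 4 were higher, with 30 min ratios of 0.73 for DHH1, 0.69 for GLN3, 0.78 for MUM3 and 0.75 for YGR290W. Their 3.5, 7 and 15 min ratios were all below 0. DHH1, GLN3 and YGR290W were printed in 1 of the 32 print blocks of the array, in its rows 3, 5 and 7. The 2 spots of MUM3 at 30 min were 0.12 and 1.43. GLN3 and YGR290W were dim (brightness percentiles 1.54 and 6.94). The part of spot position and of brightness in these 4 values was not tested.

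**Figure D5:**
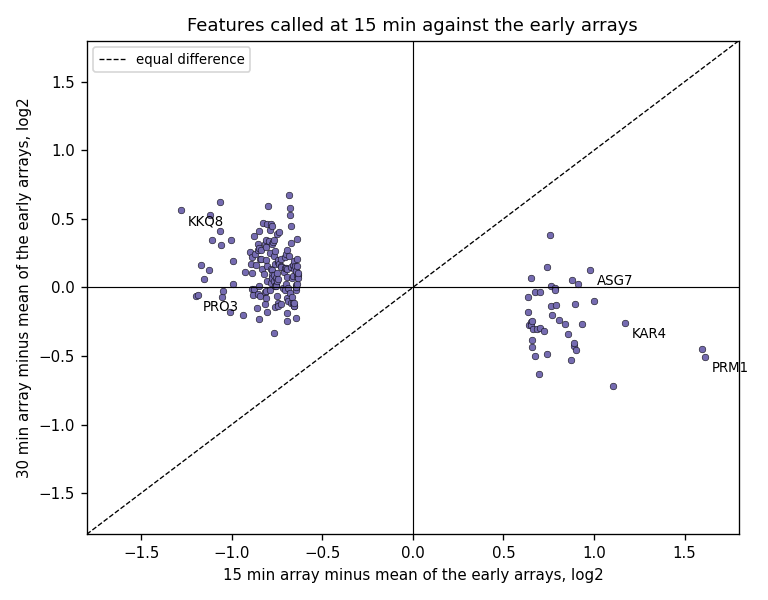
Each point is 1 of the 190 features that limma called when the 30 min array was left out, with its 15 min ratio minus the early mean on the horizontal axis and its 30 min ratio minus the same early mean on the vertical axis, both on the log2 scale. The 147 points on the left and the 43 on the right were chosen by the horizontal axis, and on the vertical axis the left group has a median of 0.12 and the right group one of -0.26.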

How the data were processed

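Spot values came from 4 deposited scanner files, 1 per exposure, with mean foreground and mean background intensity for Cy3 and Cy5; per the file headers these intensities are not normalized. Per the labels, treated RNA carried Cy5 and untreated RNA Cy3. The deposited series matrix equals log10 of raw Cy5 over raw Cy3 on every spot, uncentred, with column medians from -0.222 to -0.0127, and served as an alternative. The background was corrected with normexp (offset 50), log2(Cy5/Cy3) was normalized by loess within each array (span 0.3, 4 iterations), and the 2 spots were averaged, with R 4.3.3 and limma 3.58.1. Features named empty or Ara were left out. A feature was tested when both spots exceeded background by over 2 background SDs in 1 channel on every array. Late minus early was fitted with lmFit and eBayes on 4 arrays, and the test was tried on simulated data. The number of arrays limits the precision. RefSeq gene names matched 5763 features by locus tag, and 573 kept the file's name. Named genes were the widest separated features, up to 15 per direction, list members, and extremes identified as such. The genes and lists were chosen with earlier results of these data known. Promoter sequences were not used here.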

Additional observations from a re-analysis of the deposited data

Results flagged for a closer look

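In 253 of all tested features (4.11%) both early arrays lay on one side of 0 and both late arrays on the other, and limma called none of them. The genes described above that did so are given here. Below 0 early and above 0 late were BEM2 (difference 0.52), AAN1 (0.31), SOF1 (0.31), NOP1 (0.24) and CIK1 (0.16). Above 0 early and below 0 late were TMA64 (-0.46), PPM1 (-0.46), PEX35 (-0.43), VAC8 (-0.39), the probe YGL008C-R (-0.34), GLR1 (-0.33), POR2 (-0.32) and UBX2 (-0.27). Groups of 2 arrays are too small for a test of outlying arrays.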

How the results depend on the processing

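No feature was called with no background correction, normexp offset 0, median centring, the deposited ratios, equal array spread, no filter, the filter above empty spots, array weights, a trended robust prior, or a slope on log2 of minutes. Leaving out 1 array gave 0 to 190 calls. A replicate block on unaveraged spots called 0, with 58 at an unadjusted p under 0.05 and a spot correlation of 0.685; the replicate numbers name the 2 spots of 1 array and pair no cultures. The 18 features with a gap of at least 0.25 became 117 with offset 0 (72 higher, 45 lower), 253 in the deposited ratios (253 higher, 0 lower) and 28 with equal spread (14 each way). Higher ones became 12 with median centring and 3 with the filter above empty spots. Without 1 array a lone array needs no partner, and the counts were 239 to 952 in all, 166 to 378 higher and 73 to 574 lower. Of the 18, 7 kept their gap with no background correction, 8 with median centring, 15 with offset 0, 15 with equal spread, 4 in the deposited ratios, and 13 of the 13 still tested with the stricter filter. List medians of at least 0.1, 3 in the main setting, numbered 2 with no background correction, 6 with offset 0 and 7 with median centring. They numbered 36 in the deposited ratios, 4 with equal spread, 5 with the stricter filter and 6 to 8 without 1 array. The deposited ratios are not centred and shift the median difference of all features to 0.374. On that scale PPM1 (0.066), PEX35 (0.070), COB (0.148), VAC8 (0.202), POR2 (0.260) and YGL008C-R (0.337) turned positive, all below that shift; other causes of the changes were not tested. Of 1829 other values of named genes, 1484 kept their sign and, outside the slope fit, moved by less than their SE. Another 304 moved by at least their SE or changed sign. A change of sign was counted apart, as a reversal, only within the 18 features, with 6 such values. The rest came from fits without 1 late array. The 2 filter settings, the array weights, the trended robust prior and the replicate block leave a gene's difference unchanged by construction. Their values are among the 1484 and do not show stability. VAC8 (-0.24) and POR2 (-0.17) were smaller with no background correction, as YHB1 was.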

Other observations

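The 32 control features named Ara, which are no yeast genes and were in no comparison, had median log2 ratios of -0.35, -0.30, -0.25 and -0.32 at 3.5, 7, 15 and 30 min. Their late minus early difference had a median of -0.03 and a range from -0.26 to 0.35, and 0 of them had a gap of 0.25. All 4 medians were below 0, and the difference between late and early arrays was near 0.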
